A study of Mus musculus with 9 samples.

Results

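A set of 10 genes that mark fat cells was followed in the extrahepatic bile duct (EHBD) of mice 24 hours after bile duct ligation (BDL) or sham surgery. The genes are Adipoq, Lep, Retn, Cfd, Plin1, Plin4, Cidec, Fabp4, Lpl and Pparg. The members were taken by symbol from a list of adipocyte genes, and all 10 were found among the 55822 gene IDs of the count table. All 10 passed the filter on low counts that left 21299 genes. Whole EHBDs of adult male and female mice were used (strain C57BL/6 in the labels, C57BL/6J in the study's methods), 5 after BDL (replicates 3, 4, 6, 8 and 10) and 4 after sham surgery (replicates 1, 2, 5 and 7), with 1 bulk RNA-Seq library per mouse. The labels name no engineered allele and no agent beside the surgery, in either group. The BDL group held 3 females and 2 males, and the sham group held 2 females and 2 males. Since the tissue was sequenced whole, fewer fat cells in the sample and less of these RNAs per fat cell cannot be told apart.

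White adipocytes store triglyceride in a large lipid droplet. Lipoprotein lipase (Lpl) frees fatty acids from circulating lipoproteins, Fabp4 carries them inside the cell, and perilipins (Plin1, Plin4) and Cidec coat and enlarge the droplet. During lipolysis, lipases reach the droplet when perilipin 1 is phosphorylated, and fatty acids leave the cell. Adipocytes also secrete adiponectin (Adipoq), leptin (Lep), adipsin (complement factor D, Cfd) and, in mice, resistin (Retn). PPARγ (Pparg) is the nuclear receptor that drives fat cell differentiation, and it is also made in macrophages and some epithelia. Other cells make some of these RNAs too: macrophages make Lpl, and both macrophages and capillary endothelial cells make Fabp4.

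Libraries held 23067967 to 29991945 estimated counts each. The share of counts from 20 pancreatic acinar genes was 0.0104% to 2.78% in BDL libraries and 17.3% to 41.1% in sham libraries, so acinar content and surgery cannot be told apart for any result below. BDL replicate 4 and Sham replicate 7 stood apart within their groups on the adipocyte genes. BDL replicate 4 also had the lowest summed levels of macrophage, fibroblast, endothelial and smooth muscle markers and the highest of biliary epithelial markers among BDL libraries, and Sham replicate 7 had the same pattern among sham libraries. Of all genes tested, 8810 passed an adjusted p under 0.05 in edgeR's quasi-likelihood test of BDL against sham with sex as a term, 4565 higher and 4245 lower, and the median log2 fold change over all genes was -0.03.

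Most adipocyte genes were lower after BDL. Of the 10 members, 8 fell, 0 rose and 2, Lep and Pparg, did not pass the test, where 19.9% of all tested genes were called lower and 21.4% higher. The median log2 fold change of the members was -2.66. All 5 BDL libraries were below all 4 sham libraries for 6 members, against 19.0% of all genes with that pattern and 19.2% with the reverse, and the groups overlapped for Lep, Plin4, Fabp4 and Pparg. Leaving out BDL replicate 4 and Sham replicate 7 together, a choice made after the data were seen, gave 8 calls as well, all lower, where 19.0% of all genes were called lower and 21.2% higher (8395 genes in all).

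**Figure D1:**
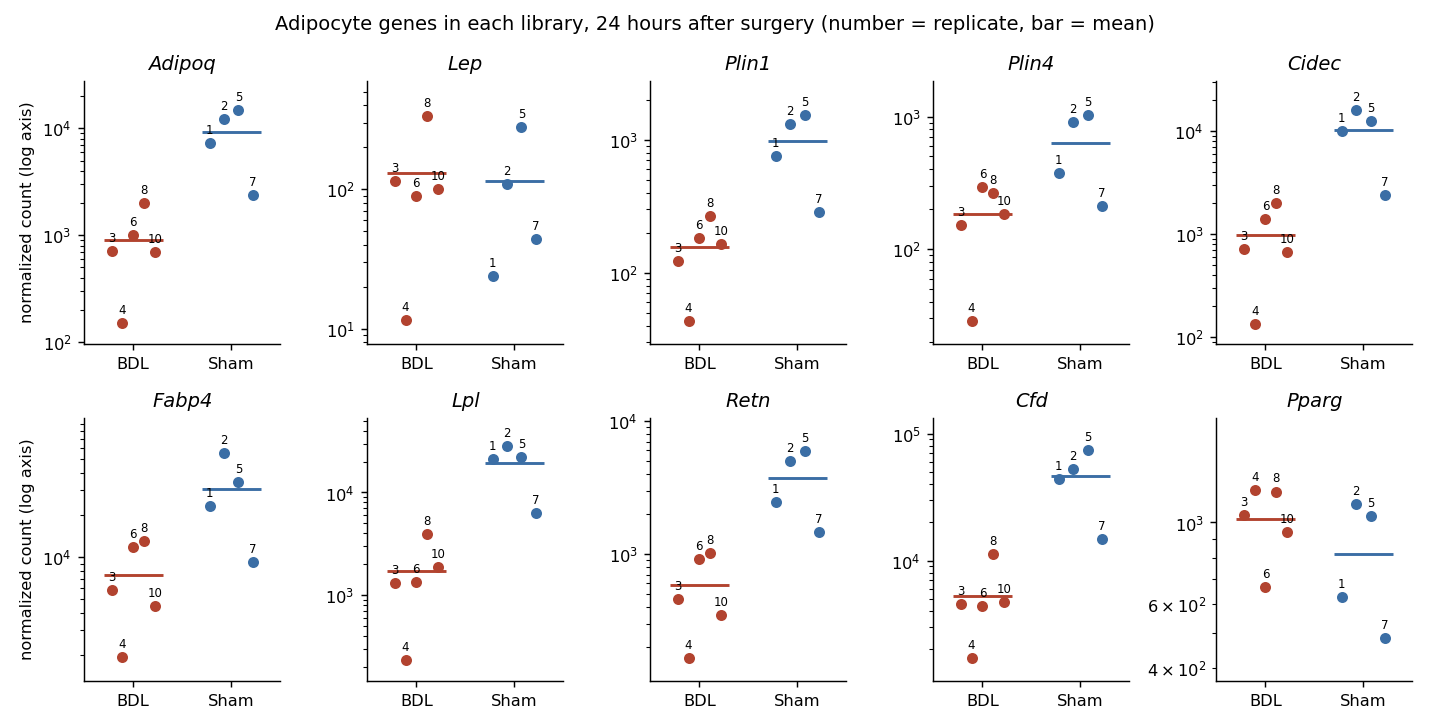
Normalized counts (estimated count divided by DESeq2's size factor, log axis) of the 10 adipocyte genes, with BDL on the left and Sham on the right of each panel. Points are libraries labelled with their replicate number and bars are group means. BDL libraries lie below sham libraries for 6 genes, BDL replicate 4 is lowest in 9 genes, and Lep, Plin4, Fabp4 and Pparg overlap between the groups.

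Among the secreted factors, Adipoq (ENSMUSG00000022878, chromosome 16 of GRCm39, 22964106 to 22976810, plus strand) encodes adiponectin, a hormone that raises insulin sensitivity. Its normalized counts, the estimated count over DESeq2's size factor, were 707.8, 149.9, 999.4, 1983 and 690.3 in BDL replicates 3, 4, 6, 8 and 10, against 7328, 12286, 14709 and 2363 in Sham replicates 1, 2, 5 and 7. The highest BDL library, replicate 8, stayed below the lowest sham library, replicate 7. Mean levels were 906 ± 676 in BDL EHBDs (SD, n = 5) and 9171 ± 5481 in sham EHBDs (SD, n = 4). Adipoq fell (log2 fold change -3.34, standard error (SE) 0.71, adjusted p = 0.0045, edgeR).

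Retn (ENSMUSG00000012705, chromosome 8, 3705324 to 3710689) encodes resistin, which adipocytes secrete in mice. Its normalized counts were 455, 166, 918, 1018 and 347 in BDL replicates 3, 4, 6, 8 and 10, against 2458, 5038, 5898 and 1459 in Sham replicates 1, 2, 5 and 7. The groups did not overlap, and Retn fell (log2 fold change -2.72, SE 0.57, adjusted p = 0.00401). Cfd (ENSMUSG00000061780, chromosome 10, 79726668 to 79728496) encodes adipsin, the serine protease that starts the alternative complement pathway. Its normalized counts were 4552, 1698, 4365, 11183 and 4682 in the BDL libraries in the same order, against 43846, 52264, 73724 and 14853 in the sham libraries. Cfd had the smallest adjusted p among the members (log2 fold change -3.10, SE 0.58, adjusted p = 0.00224). Exon length was taken as the union of exons over all transcripts of a gene. Per kilobase of it, Cfd had the highest mean level, at 5494 normalized counts per kilobase in BDL and 47896 in sham EHBDs. Without division by length, Fabp4 was above Cfd in BDL EHBDs, at means of 7446 and 5296 normalized counts. In sham EHBDs Cfd stayed above Fabp4, at means of 46172 and 30756.

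Lep (ENSMUSG00000059201, chromosome 6, 29060216 to 29073877) encodes leptin, the hormone that reports fat stores to the hypothalamus. Unlike the other secreted factors, its levels overlapped, with 115, 11.5, 89.7, 336 and 99.9 normalized counts in BDL replicates 3, 4, 6, 8 and 10, against 24.0, 108.8, 280.5 and 43.8 in Sham replicates 1, 2, 5 and 7. The highest and the lowest Lep levels of all 9 libraries were both BDL libraries, replicates 8 and 4. Means were 130.4 ± 122 in BDL (SD, n = 5) and 114 ± 117 in sham EHBDs (SD, n = 4). Its change (log2 fold change 0.28, SE 0.84, adjusted p = 0.822, edgeR) did not pass, and its sign turned in 4 alternatives: -0.44 without BDL replicate 8, -0.04 without Sham replicate 1, -0.02 without Sham replicate 7 and -0.13 in females only. Over the 24 alternatives the adjusted p for Lep ran from 0.0171 to 0.99, the low end from the fits with a term for adipocyte marker levels described below.

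Plin1, Cidec and Plin4 encode proteins of the lipid droplet. Plin1 (ENSMUSG00000030546, chromosome 7, 79369966 to 79382718, minus strand) encodes perilipin 1, the gatekeeper of the droplet against lipases. It had 122, 43.4, 182, 268 and 163 normalized counts in BDL replicates 3, 4, 6, 8 and 10, against 751, 1319, 1536 and 286 in Sham replicates 1, 2, 5 and 7. The groups came close without overlap, at 268 in BDL replicate 8 and 286 in Sham replicate 7. Plin1 fell (log2 fold change -2.60, SE 0.56, adjusted p = 0.00485). Cidec (ENSMUSG00000030278, chromosome 6, 113400691 to 113412721, minus strand) encodes a protein that moves lipid between droplets so that they grow. It had 712, 135, 1416, 2011 and 667 normalized counts in the BDL libraries in the same order, against 10083, 16187, 12626 and 2384 in the sham libraries, also without overlap, and fell (log2 fold change -3.35, SE 0.77, adjusted p = 0.00665).

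Plin4 (ENSMUSG00000002831, chromosome 17, 56406617 to 56416931, minus strand) encodes perilipin 4, a droplet coat protein of adipocytes and muscle. Its normalized counts were 153, 28.7, 294, 265 and 184 in BDL replicates 3, 4, 6, 8 and 10, against 378, 910, 1032 and 212 in Sham replicates 1, 2, 5 and 7. BDL replicates 6 and 8 were above Sham replicate 7. Its log2 fold change of -1.74 (SE 0.63) had an adjusted p of 0.0499 by edgeR, at the edge of the threshold. It did not pass without BDL replicate 3 (0.11), 8 (0.0552) or 10 (0.0962), without Sham replicate 1 (0.062), 2 (0.132) or 5 (0.265), with only Sham replicates 1 and 5 (0.094), or with scaling to genes under 0.5% of the counts (0.0531). Over all 24 alternatives the adjusted p ran from 0.00126 to 0.566.

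The other 2 genes that fell handle fatty acids. Lpl (ENSMUSG00000015568, chromosome 8, 69284603 to 69360100) had 1313, 232, 1349, 3917 and 1869 normalized counts in BDL replicates 3, 4, 6, 8 and 10, against 21254, 28055, 22062 and 6298 in Sham replicates 1, 2, 5 and 7. All BDL libraries were below all sham libraries. Lpl fell (log2 fold change -3.36, SE 0.71, adjusted p = 0.00434). With 1 library left out, its log2 fold change ran from -4.01 without BDL replicate 8 (adjusted p = 0.000904) to -3.10 without Sham replicate 5 (adjusted p = 0.0272). Fabp4 (ENSMUSG00000062515, chromosome 3, 10268785 to 10273737, minus strand), the fatty acid carrier, had 5819, 1931, 11888, 13093 and 4500.3 normalized counts in the BDL libraries in the same order, against 23274, 55983, 34594 and 9173 in the sham libraries. BDL replicates 6 and 8 were above Sham replicate 7. Fabp4 fell (log2 fold change -2.01, SE 0.66, adjusted p = 0.0337), and did not pass without BDL replicate 3 (0.0993) or 10 (0.1) or without Sham replicate 1 (0.0526), 2 (0.0743) or 5 (0.138), with a range of 0.00275 to 0.456 over 24 alternatives. Macrophage and endothelial markers, whose cells also make Fabp4, are given below; their part in these results was not tested.

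Pparg (ENSMUSG00000000440, chromosome 6, 115337675 to 115468268), the transcription factor of the list, had 1047, 1229, 666, 1215 and 943 normalized counts in BDL replicates 3, 4, 6, 8 and 10, against 627, 1124, 1043 and 484 in Sham replicates 1, 2, 5 and 7. BDL replicate 4, the lowest BDL library for the other 9 members, was the highest for Pparg. Means were 1019.9 ± 231 in BDL (SD, n = 5) and 819.6 ± 312 in sham EHBDs (SD, n = 4). Its change (log2 fold change 0.37, SE 0.27, adjusted p = 0.312) did not pass, in edgeR or in any of the 24 alternatives (adjusted p from 0.167 to 0.783). The gene makes the transcripts PPARγ1 and PPARγ2 from separate promoters, and gene-level counts do not separate them.

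Compared per kilobase of exon, the order of the mean levels in BDL EHBDs was Cfd (5494 normalized counts per kilobase), Fabp4 (1503), Adipoq (398), Cidec (319.8), Retn (215), Pparg (146), Lpl (142), Lep (38.8), Plin1 (24.5) and Plin4 (23.1). In sham EHBDs it was Cfd (47896), Fabp4 (6209.6), Adipoq (4028), Cidec (3339.8), Lpl (1588), Retn (1372), Plin1 (153), Pparg (118), Plin4 (79.3) and Lep (34.0). The exon length, a union over all transcripts, was 4953 bases for Fabp4, the whole span of its gene, and 964 bases for Cfd. Both orders therefore depend on the lengths used. Neighbours in either order from Fabp4 downward overlapped between libraries in their levels per kilobase, apart from Retn and Plin1 in sham libraries. Pparg was the steadiest member, with a 1.85-fold range over BDL libraries and a 2.32-fold range over sham libraries, while Lep spanned 29.3-fold in BDL and 11.7-fold in sham libraries.

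Promoter windows of 300 bases in RefSeq on GRCm38.p6, a different build from that of the counts, were found for 8 of the 10 members, and those of 4 are shown because they belong to the genes that set the pattern. Adipoq is the gene against which the others are compared, Plin1 is the member that followed it most closely, and Lep and Pparg are the members that did not fall. Capitals mark TTGCNNAA on either strand, the core letters bound by C/EBP factors, which act with PPARγ in fat cells. The Lep window is on the plus strand at chr6:29059971-29060270, with a match that begins 55 bases before the start site. The Plin1 window is on the minus strand at chr7:79732727-79733026, with matches 187 and 58 bases before the start. The Pparg window is the third and most downstream of that gene, on the plus strand at chr6:115421816-115422115, with matches 215 and 16 bases before the start. The Adipoq window on the plus strand at chr16:23146286-23146585 held no match.
Lep: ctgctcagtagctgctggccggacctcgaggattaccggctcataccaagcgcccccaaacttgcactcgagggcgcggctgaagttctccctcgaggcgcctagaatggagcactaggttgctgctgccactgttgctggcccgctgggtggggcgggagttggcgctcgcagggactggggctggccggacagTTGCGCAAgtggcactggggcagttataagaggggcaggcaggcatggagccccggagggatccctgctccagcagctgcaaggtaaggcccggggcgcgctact
Plin1: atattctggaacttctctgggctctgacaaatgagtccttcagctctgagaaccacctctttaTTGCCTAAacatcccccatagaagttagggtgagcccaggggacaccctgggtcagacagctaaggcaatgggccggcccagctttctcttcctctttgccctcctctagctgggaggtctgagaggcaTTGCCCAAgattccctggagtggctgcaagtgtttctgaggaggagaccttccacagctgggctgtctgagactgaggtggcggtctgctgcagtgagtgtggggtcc
Pparg: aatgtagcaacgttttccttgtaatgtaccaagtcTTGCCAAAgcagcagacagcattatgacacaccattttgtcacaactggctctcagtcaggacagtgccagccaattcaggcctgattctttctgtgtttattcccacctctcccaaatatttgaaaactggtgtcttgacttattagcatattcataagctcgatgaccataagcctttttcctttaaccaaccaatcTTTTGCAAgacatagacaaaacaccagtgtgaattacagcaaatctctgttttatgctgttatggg
Adipoq: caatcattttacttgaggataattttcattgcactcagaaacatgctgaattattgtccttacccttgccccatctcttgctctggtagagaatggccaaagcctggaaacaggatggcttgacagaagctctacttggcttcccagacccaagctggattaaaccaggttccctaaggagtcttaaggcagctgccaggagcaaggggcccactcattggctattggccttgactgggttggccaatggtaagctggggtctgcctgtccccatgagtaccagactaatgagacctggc
The letters were found in windows of 4 members, Lep, Plin1, Pparg and Cidec, and in 10.8% of 32851 RefSeq promoter windows of that length. They occurred both in members that fell and in members that did not, and a match is a description of letters, not a bound site.

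Levels were next set against Adipoq within each library, as a ratio to 1 adipocyte gene that itself fell after BDL. Whether Adipoq follows the amount of adipocyte RNA was not tested. The ratios of Cidec, Lpl, Retn and Cfd to Adipoq overlapped between BDL and sham libraries. Those of Lep, Plin1, Plin4, Fabp4 and Pparg, 5 of 9, were higher in every BDL library than in any sham library. That pattern held for 49.3% of all genes and its reverse for 0.460%, so the count of 5 is near the background that the fall of Adipoq itself sets. Of 10 other adipocyte markers, 1 (Lipe) had all BDL ratios above all sham ratios, 1 (Adig) had all below and 8 overlapped, with BDL over sham folds of the medians from 0.501 to 2.65.

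Lep moved furthest from Adipoq among the secreted factors. Leptin counts per adiponectin count were 0.162, 0.0765, 0.0898, 0.17 and 0.145 in BDL replicates 3, 4, 6, 8 and 10, against 0.00327, 0.00886, 0.0191 and 0.0185 in Sham replicates 1, 2, 5 and 7. The median ratio was 10.6-fold higher in BDL libraries, and the lowest BDL ratio was 4.01-fold the highest sham ratio. Adipoq itself was 10.1-fold lower in BDL by edgeR, so a gene with no change would have a ratio raised by about as much. Pparg per Adipoq was 1.48, 8.2, 0.666, 0.613 and 1.37 in the BDL libraries in the same order, against 0.0855, 0.0915, 0.0709 and 0.205 in the sham libraries, a 15.4-fold difference of medians. Plin4 per Adipoq had a median of 0.216 in BDL and 0.0721 in sham libraries, a 3.0-fold difference, and Fabp4 per Adipoq had medians of 8.22 and 3.53 in BDL and sham, a 2.33-fold difference. Plin1 per Adipoq had a median 1.72-fold higher in BDL.

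**Figure D2:**
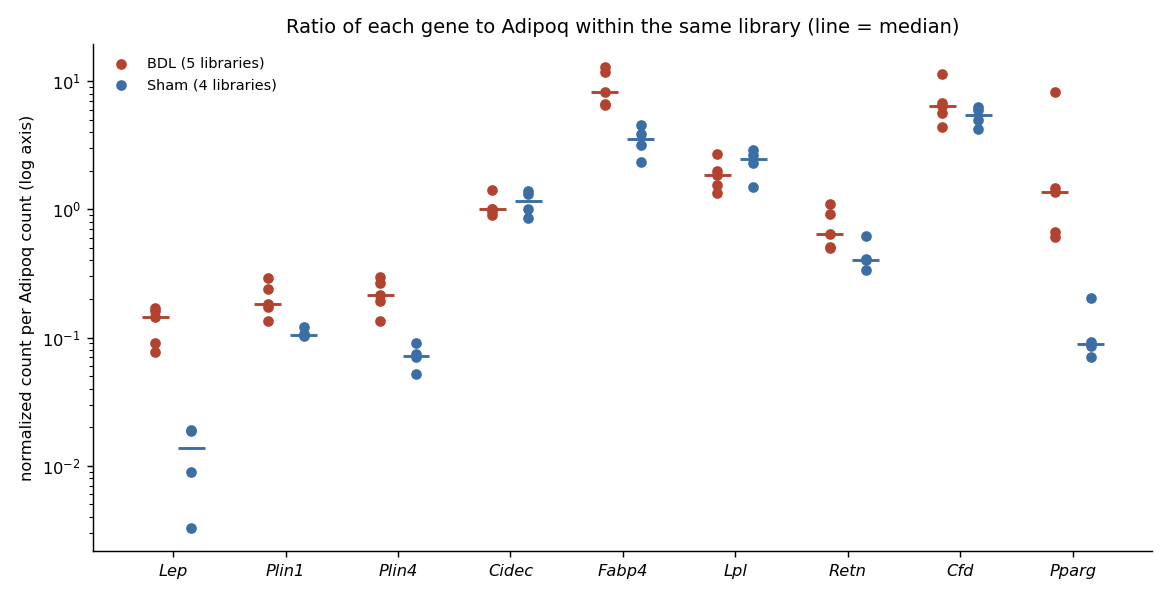
Normalized count of each gene divided by that of Adipoq in the same library (log axis), with BDL left of Sham for each gene. Points are libraries and lines are medians. Lep and Pparg show the widest separation, 10.6-fold and 15.4-fold between the medians, while Cidec, Lpl, Retn and Cfd overlap between the groups. Adipoq itself was 10.1-fold lower in BDL by edgeR.

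With the log2 level of Adipoq as a further term of the edgeR fit, Lep was the only member of 9 that was called. It was higher in BDL (log2 fold change 4.02, SE 0.91, adjusted p = 0.0242), where 8.01% of all genes were called higher and 3.98% lower. The other 8 members had adjusted p from 0.0988 for Plin4, with a log2 fold change of 1.40, to 0.954 for Retn, with -0.04. With the summed level of the 10 other adipocyte markers as the term in place of Adipoq, Lep had a log2 fold change of 4.02 (adjusted p = 0.0171) and was again the only member called, where 8.50% of all genes were called higher and 4.32% lower. Adipoq levels did not overlap between the groups, so these fits extend a line within groups across the gap between them.

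**Figure D3:**
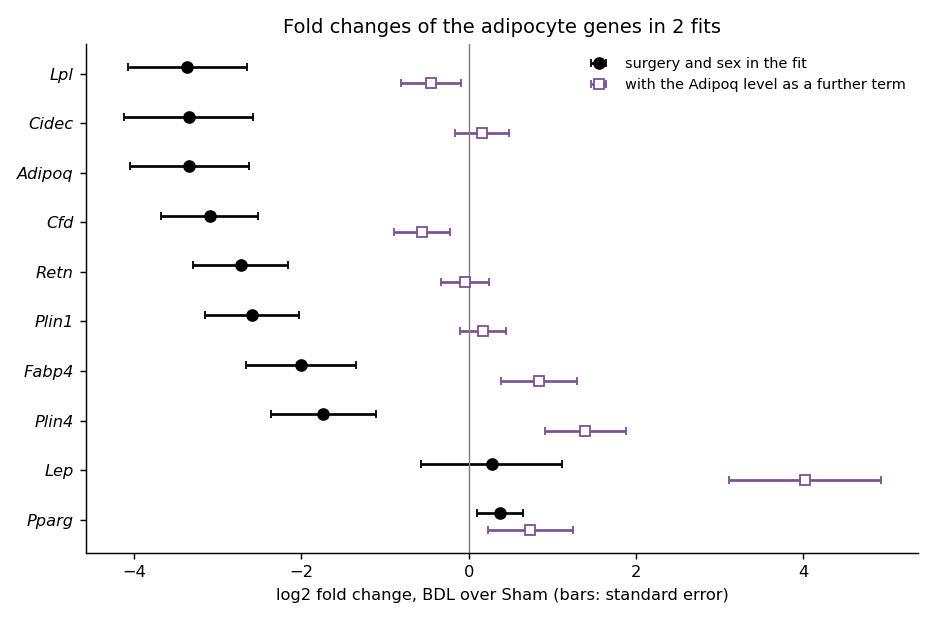
Log2 fold change of BDL over Sham for each member from edgeR, with standard errors, from the fit with surgery and sex (filled circles) and from the fit with the Adipoq level as a further term (open squares, not available for Adipoq). Of the circles, 8 lie below 0 and passed the test. Lep, at 4.02, is the only square that passed.

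Across libraries the members moved together within each group. For each gene, the deviation of log2(normalized count + 1) from its group mean was compared with that of Adipoq over the 9 libraries, as a description without a test. Pearson's r with Adipoq was 0.98 for Plin1, 0.98 for Cidec, 0.97 for Cfd, 0.95 for Lpl, 0.95 for Plin4, 0.95 for Retn and 0.94 for Fabp4. It was 0.86 for Lep (Spearman's rho 0.93) and 0.33 for Pparg (rho 0.45). Of 13014 genes with at least 50 normalized counts on average, 1.94% had an r above 0.9, against 7 of the 9 members. Without BDL replicate 4 and Sham replicate 7, 2 of the 9 members, Plin1 and Cfd, had an r above 0.9, against 0.653% of these genes.

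The libraries behind this pattern were BDL replicate 4, lowest of its group in 9 of 10 members, Sham replicate 7, lowest in 9 of 10, and BDL replicate 8, highest in 8 of 10. Without BDL replicate 4 and Sham replicate 7 the median r of the members was 0.83, against 0.95 with them. Summed macrophage, endothelial, fibroblast and smooth muscle markers had r of 0.82, 0.87, 0.82 and 0.89 with Adipoq over 9 libraries, and 0.29, 0.36, 0.38 and 0.85 without these 2 libraries. Biliary epithelial markers had an r of -0.87, and -0.48 without them. The part of these other cells in the members' values was not tested.

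**Figure D4:**
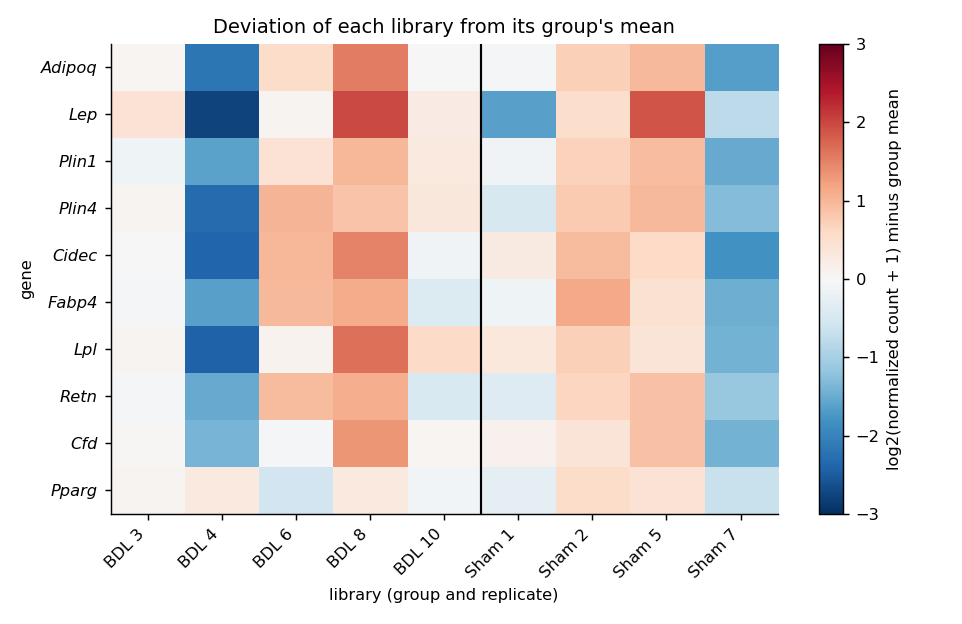
Deviation of each library's log2(normalized count + 1) from its group mean (colour scale, log2 units) for the 10 members in rows, with the 5 BDL libraries left of the line and the 4 sham libraries right of it. Sham 7 is below its group mean for all 10 genes and BDL 4 for 9, Pparg at 0.30 being the exception, while BDL 8 is above its group mean for all 10.

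The 10 genes most like Adipoq by this measure were Slc36a2, Car3, Slc1a3, Plin1, Lipe, Car5b, Cidec, Fcgrt, Slc7a10 and Fah, with r from 0.989 to 0.979. Plin1 and Cidec are members, and Car3, a carbonic anhydrase abundant in fat, Lipe, hormone-sensitive lipase, and Slc7a10, an amino acid transporter of white adipocytes, are other adipocyte markers. All 10 were lower after BDL at an adjusted p under 0.05, with log2 fold changes such as -3.95 for Slc36a2, an amino acid transporter, -2.93 for Slc1a3, a glutamate transporter, -3.13 for Car5b, a mitochondrial carbonic anhydrase, -2.08 for Fcgrt, which encodes the neonatal Fc receptor, and -1.78 for Fah, an enzyme of tyrosine breakdown. Only 2 of the 10 were among the nearest 10 without BDL replicate 4 and Sham replicate 7.

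Genes of fat metabolism outside the members were read from lists chosen with earlier results of these data known. Beside each count stands the median log2 fold change of the list, which for all genes was -0.03. Of all genes, 19.9% were called lower and 21.4% higher. Of 10 other adipocyte markers, 9 fell, 0 rose and 1 did not pass (median -3.45). Adig, a small adipocyte protein, was at 44.4 ± 36.3 normalized counts in BDL (SD, n = 5) and 653 ± 316 in sham EHBDs (SD, n = 4), and fell (log2 fold change -3.94, adjusted p = 0.000924). Aqp7, the glycerol channel through which adipocytes release glycerol, had a log2 fold change of -3.76, Slc7a10 of -3.61 and Adrb3, the adipocyte beta-adrenergic receptor, of -3.36. Car3 (-3.05) and Lipe (-2.45) also fell, and each missed the threshold without Sham replicate 5 (adjusted p = 0.0509 and 0.0538).

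Of 13 genes of lipolysis and its control, 11 fell, 0 rose and 2 did not pass (median -2.16). Pnpla2, which encodes adipose triglyceride lipase and starts lipolysis, was at 2692 ± 838 normalized counts in BDL (SD, n = 5) and 12432 ± 5781 in sham EHBDs (SD, n = 4), without overlap, and fell with a log2 fold change of -2.17 (adjusted p = 0.00142). Mgll, the lipase of the last step, had a log2 fold change of -2.36 (adjusted p = 0.0013). Insr, the insulin receptor through which insulin restrains lipolysis, fell with -1.37 (adjusted p = 6.78e-05), and with -1.41 when the Adipoq level was a term (adjusted p = 0.00782).

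Of 10 other lipid droplet proteins, 4 fell, 2 rose and 4 did not pass (median -0.47). Plin2, the perilipin of cells other than adipocytes, had 12872, 4040.4, 12421, 6536 and 4922 normalized counts in BDL replicates 3, 4, 6, 8 and 10, against 3282, 4665, 3198 and 1473 in Sham replicates 1, 2, 5 and 7, and rose with a log2 fold change of 1.505 (adjusted p = 0.0159). Its sign was thus the opposite of that of Plin1 and Plin4. Hilpda, an inhibitor of Pnpla2, was at 755 ± 639 normalized counts in BDL (SD, n = 5) and 201 ± 29.2 in sham EHBDs (SD, n = 4), and rose with 1.97 (adjusted p = 0.0255). Plin2 missed the threshold without BDL replicate 3 (0.0657) or Sham replicate 7 (0.0503), and Hilpda without BDL replicate 3 (0.106) or any sham library (0.0557 to 0.0671). Plin2 and Hilpda also missed it with only Sham replicates 1 and 5 (0.0918 for Plin2, 0.136 for Hilpda), in females only (0.0911 for Plin2, 0.174 for Hilpda) and in males only (0.0881 for Plin2, 0.0606 for Hilpda). Bscl2, or seipin, which shapes new droplets, fell with -1.34, Plin5 with -1.72, Cidea with -1.28 and Fitm2 with -0.90. Cidea missed the threshold without Sham replicate 1 (0.0501), with only Sham replicates 1 and 5 (0.0805) and in males only (0.0634), and Fitm2 without BDL replicate 3 or 10 or Sham replicate 2 or 5 (0.0519 to 0.101).

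Of 17 genes of fatty acid and triglyceride synthesis, 11 fell, 2 rose and 4 did not pass (median -1.27). Thrsp, a lipogenic protein, was at 58.5 ± 62.9 normalized counts in BDL (SD, n = 5) and 3544 ± 2949 in sham EHBDs (SD, n = 4), the largest fall of the list (log2 fold change -5.94, adjusted p = 0.000229). Scd1, stearoyl-CoA desaturase, had -3.84, Slc2a4, the insulin-responsive glucose transporter, -3.56, and Lpin1, a phosphatidate phosphatase, -3.23. Elovl6, which elongates fatty acids, rose with 1.68 (adjusted p = 0.00283). Me1, malic enzyme, rose with 0.56 (adjusted p = 0.04), a call lost without BDL replicate 3, 4, 8 or 10 or Sham replicate 1, 2 or 7 (0.0555 to 0.109), with only Sham replicates 1 and 5 (0.243), with RLE scaling (0.0525) and with upper-quartile scaling (0.108).

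Of 8 Lpl partners and fatty acid uptake genes, 6 fell, 1 rose and 1 did not pass (median -1.95). Gpihbp1, which anchors lipoprotein lipase on capillaries, fell with a log2 fold change of -2.03 (adjusted p = 0.00979, and 0.0661 without Sham replicate 5). Slc27a1 (-3.35), a fatty acid transporter, Acsl1 (-2.44), an acyl-CoA synthetase, and Vldlr (-2.22), a lipoprotein receptor, fell as well. Fabp5, the fatty acid binding protein of epithelia and macrophages, had 3465, 1351, 1489.8, 2953 and 2234 normalized counts in BDL replicates 3, 4, 6, 8 and 10, against 605, 569, 876 and 443 in Sham replicates 1, 2, 5 and 7. It rose with 1.92 (adjusted p = 0.00112), the opposite sign to Fabp4.

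Of 13 transcription factors and coactivators of fat cells, 9 fell, 1 rose and 3 did not pass (median -1.65). Klf15 fell with a log2 fold change of -3.89 (adjusted p = 3.22e-05) and was at 127 ± 53.2 normalized counts in BDL (SD, n = 5) and 1902 ± 425 in sham EHBDs (SD, n = 4). Nr1h3, the liver X receptor alpha gene, fell with -1.52, Ppargc1a with -1.89 and Rxra, the partner of PPARγ, with -0.64. Cebpb, which acts early in adipogenesis and in inflammation, rose with 1.28 (adjusted p = 0.00292).

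Of 10 adipokine receptors and other adipokines, 3 fell, 2 rose and 5 did not pass (median -0.22), counts near the shares of all genes called lower (19.9%) and higher (21.4%). Lepr, the leptin receptor, had 162, 115, 263, 357 and 167 normalized counts in BDL replicates 3, 4, 6, 8 and 10, against 2138, 2068, 2264 and 1261 in Sham replicates 1, 2, 5 and 7. It fell with a log2 fold change of -3.18 (adjusted p = 0.000107), and with the Adipoq level as a term the value was -1.84 (adjusted p = 0.00278). Rarres2, which encodes chemerin, fell with -2.19 and Nrg4 with -1.81, while Apln, the peptide apelin, rose with 2.77 and Cap1, whose product binds resistin in human cells, with 1.01.

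Of 8 brown and beige fat genes tested, 4 fell, 1 rose and 3 did not pass (median -0.94), and Ucp1, the uncoupling protein that defines brown fat, was at 0 in every library. Cox8b fell with a log2 fold change of -3.06 (adjusted p = 0.00178), and Dio2, which activates thyroid hormone, rose with 2.33 (adjusted p = 0.00367). Elovl3 was at 0 in all 5 BDL libraries and in Sham replicate 7, and reached 44.6 normalized counts in Sham replicate 5. Prdm16 fell with -0.47 (adjusted p = 0.0348), a call lost without BDL replicate 3, 4, 8 or 10 or Sham replicate 1 or 5 (0.0519 to 0.103) or in males only (0.0888). Cidea, given above, also belongs to this list. Of 10 preadipocyte and adventitial progenitor genes, 5 fell, 1 rose and 4 did not pass (median -0.60). Dlk1, a preadipocyte marker, fell with -3.72, Cd34 with -1.97, Dpp4 with -0.83 and Pi16 with -1.94 (0.0819 without Sham replicate 5), while Ly6a, the Sca-1 antigen, rose with 1.96.

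**Figure D5:**
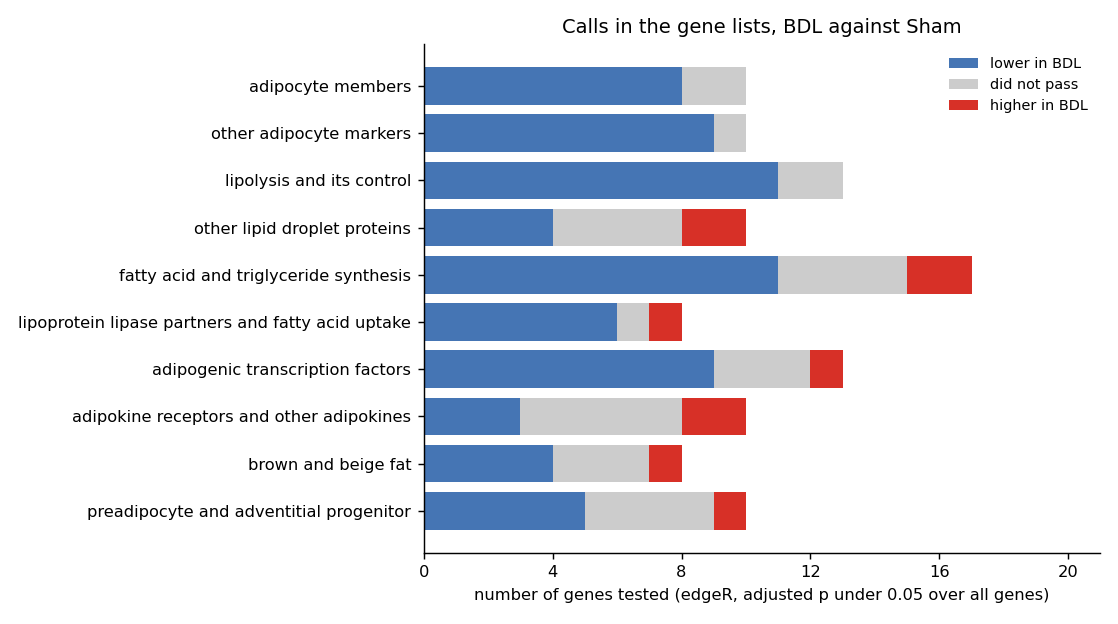
Number of genes lower in BDL, not passing and higher in BDL (edgeR, adjusted p under 0.05 over all genes) in the adipocyte members and 9 further lists, drawn along the horizontal axis. Lower calls outnumber higher calls in every list, with 8 and 0 in the members and 11 and 0 in lipolysis. Of all genes, 19.9% were called lower and 21.4% higher, and the adipokine list, with 3 and 2 of 10, was near those shares.

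Markers of some other cell types moved with surgery too, where 19.9% of all genes were called lower and 21.4% higher. Of 6 B cell and lymph node genes 0 rose and 0 fell, and of 6 hepatocyte genes 1 rose and 1 fell. Summed levels of macrophage, fibroblast and smooth muscle markers overlapped between the groups. The 2 macrophage calls of 12 genes were near the share of all genes called higher. Of 20 acinar genes 20 fell (median log2 fold change -6.67), of 8 islet genes 8 fell (-4.28), and of 12 endothelial genes 9 fell and 0 rose (-0.95), with summed endothelial levels of 6018 to 10182 normalized counts in BDL and 12656 to 20639 in sham libraries. Of 12 macrophage genes 2 rose, Cd68 and Fcgr1, and 0 fell (median -0.72), with sums of 3895 to 37333 in BDL and 15206 to 28357 in sham libraries, and of 12 neutrophil genes 11 rose (median 5.27). Of 10 biliary epithelial genes 7 rose and 1, Sox9, fell (median 1.36), with sums of 305163 to 453808 normalized counts in BDL and 122885 to 178241 in sham libraries. Of 8 mesothelial genes 5 fell, among them Upk3b and Muc16, and 2 rose, Msln and Krt19, which is also on the biliary list (median -3.85), with sums of 64420.3 to 141097 in BDL and 24445 to 28741 in sham libraries. Most of these sums came from Krt19, at means of 66595 normalized counts in BDL and 19596 in sham EHBDs. Of 10 fibroblast genes 4 fell and 0 rose (median -0.67, sums of 13489 to 103654 in BDL and 84376 to 139549.6 in sham libraries), and of 7 smooth muscle genes 3 fell and 0 rose (median -0.70, sums of 2288 to 13115 in BDL and 8169.96 to 22637 in sham libraries). Their part in the members' values was not tested. With the log2 acinar level as a further term, no member was called (0 at an unadjusted p under 0.05) and adjusted p ran from 0.261 for Retn to 0.566 for Plin4, while 4.96% of all genes were called higher and 1.62% lower (1400 genes), and the members' log2 fold changes kept their signs, at -2.31 for Adipoq and 2.73 for Lep. With only the sham libraries of lower acinar share, replicates 1 and 5, 7 of the 10 members were called, all but Plin4, Lep and Pparg. In that fit 13.6% of all genes were called lower and 17.0% higher (6385 genes). Acinar shares were still 17.3% and 31.5% in these sham libraries, against at most 2.78% in BDL libraries. The choice also leaves out Sham replicate 7, the sham library lowest in 9 members. Of the genes described outside the members, Insr, Fabp5, Klf15, Lepr and Apln passed with the acinar level as a term, with adjusted p from 0.00302 to 0.0499. Acinar levels did not overlap between the groups, so the fit with that term extends a line within groups across the gap between them. It cannot separate acinar content from surgery for any of these genes.

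No member passed the test of male against female libraries, at an adjusted or an unadjusted p under 0.05, where 0.0188% of all genes were called (4 by edgeR, 482 at an unadjusted p under 0.05, and 18 by DESeq2). No member passed the test of an interaction of surgery with sex (adjusted p = 1 for each by edgeR), where 0% of all genes were called (544 at an unadjusted p under 0.05, and 5 by DESeq2). In males only, 2 against 2 libraries, 8 members were called, all lower, where 15.2% of all genes were called lower and 18.4% higher (6399 genes). In females only, 3 against 2, 0 members were called (5 at an unadjusted p under 0.05, edgeR), where 6.21% of all genes were called lower and 8.91% higher (2964 genes). BDL replicate 4 and Sham replicate 7, which stood apart within their groups on the adipocyte genes, are both female. The counts of calls in males and in females therefore also differ in whether these libraries are included. The log2 fold change of Adipoq was -3.76 in males and -2.99 in females.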

How the data were processed

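Whole EHBD RNA was made into libraries from 4 ng with a SMART-Seq mRNA kit and sequenced by the authors as paired-end reads. Salmon was used by the authors to quantify reads on Gencode transcripts of GRCm39, and tximeta to sum them per gene. The deposited tables hold estimated counts per gene in whole numbers with no normalization, and transcript length offsets were not used here. Libraries held 23067967 to 29991945 counts. Surgery was read from the labels, and sex was read from the sample sheet of the deposit.

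Genes with at least 10 counts over all libraries (21299) were fitted with edgeR 4.0.16 in R 4.3.3 (TMM scaling, quasi-likelihood F test, surgery and sex as terms) and adjusted by Benjamini-Hochberg over all of them. An SE was obtained as the size of a log2 fold change over the square root of its F value. Normalized counts are counts over DESeq2 1.42.0 size factors. Fits with the log2 level of Adipoq, of acinar genes or of other adipocyte markers as a term, DESeq2, other scalings and filters, either sex alone, fewer sham libraries and each library left out were alternatives, and the marker term and the joint removal of 2 libraries were added after the data were seen. The script was tested on simulated data. The members, lists and tests were chosen with earlier results of these data known. Genes named are the members, up to 4 of smallest p in each direction of a list, of which those that passed are described, and the 10 most like Adipoq. Car3 and Lipe, outside the first part of that rule, are named by likeness. Positions are from Gencode vM39, which held 55261 of the 55822 IDs. Promoters were searched on both strands for the C/EBP core, and for nuclear receptor, AP-1 and TATA motifs, each found in 1 member and not described further. Each mouse gave 1 library, so the tests set the difference of the groups against the spread between libraries of different mice. Mouse, dissection and library preparation cannot be told apart in that spread.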

Additional observations from a re-analysis of the deposited data

Results flagged for a closer look

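Among the ratios to Adipoq, 3 values came from a library far from the others of its group, the gap to its nearest neighbour taking more of the group's range than Dixon's 95% limit allows. Pparg per Adipoq was 8.2 in BDL replicate 4, with the other BDL libraries at 0.613 to 1.48, and 0.205 in Sham replicate 7, with the other sham libraries at 0.0709 to 0.0915. These are the libraries with the lowest Adipoq of their groups. Cidec per Adipoq was 1.42 in BDL replicate 6, with the other BDL libraries at 0.902 to 1.01. In all, 38 groups of values were looked at, of which chance alone flags about 5 percent.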

How the results depend on the processing

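Of the 10 members, 6 to 8 were called with any 1 library left out, 7 with scaling to genes under 0.5% of the counts or with only Sham replicates 1 and 5, and 8 with DESeq2, RLE or upper-quartile scaling, 3 other filters, no sex term, males only or BDL replicate 4 and Sham replicate 7 removed. None was called with the acinar level as a term (0 of 10, and 1400 of all genes) or in females only (0 of 10, and 2964 of all genes), and 1 was called with the Adipoq level (2554 of all genes) or the other adipocyte markers (2731 of all genes) as a term. Over all genes, 7176 to 8746 were called with 1 library left out, and 9771 by DESeq2. DESeq2 called 5 genes for the interaction with sex and 18 for sex, against 0 and 4 by edgeR. The sign of the log2 fold change turned for Lep in females only (-0.13) and over libraries left out (-0.44 to 1.17). It turned with the Adipoq level and with the other markers as a term for Plin1 (0.17 and 0.084), Plin4 (1.40 and 1.36), Fabp4 (0.84 and 0.75), Gpihbp1 (0.23 and 0.12), Pi16 (0.33 and 0.25), Car3 (0.12 and 0.057) and Lipe (0.27 and 0.14), and with the Adipoq level for Cidec (0.16). The cause was not tested. Upper-quartile scaling set the median log2 fold change of all genes at -0.18, against -0.03, and no sign of a member turned with it. The median r of the members with Adipoq was 0.951 on log CPM too, and the 6 members without overlap were 6 with TMM scaling. No paired analysis was made because the labels do not say which mice, if any, form pairs. The study's methods state that mice were matched by age and sex, and that littermates served as controls where possible.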
